A study of Sus scrofa with 10 samples.

Results

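The antioxidant enzymes described here are the superoxide dismutases SOD1, SOD2 and SOD3, catalase (CAT), the glutathione peroxidases GPX3 and GPX4, heme oxygenase HMOX1, the peroxiredoxins PRDX1 and PRDX6 and thioredoxin (TXN). These 10 genes were listed by symbol and looked up among the 19972 protein-coding loci of the 43499 loci in the deposited table, and 7 of them were found by symbol. The loci of PRDX1 and TXN carry only an Ensembl identifier in the table and were matched through reference identifiers, whereas HMOX1 had no matching locus and is not analysed here. The values of 9 enzymes are therefore given, each from 1 locus on Sscrofa11.1, and all 9 passed the filter, a mean FPKM (read fragments scaled to transcript length and library size) no lower than 0.1.

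Each of 10 gilts gave 1 ovary library, with 5 pigs in the control group and 5 under rpFSH treatment. All of them shared a genetic background. From 210 days of age they were fed altrenogest, a progestin that holds back oestrus, for 18 days, with 20 mg given daily. After 2 days without altrenogest, the rpFSH treatment group was injected with 1000 IU of rpFSH (recombinant pig follicle-stimulating hormone) per pig and the control group with saline. Ovary tissue was collected when the pigs were 234 days old, with the surface follicles taken off, so the values do not cover those follicles. The labels call the control pigs untreated, and they give poly(A) selection with a NovaSeq sequencer where the methods give rRNA removal with a HiSeq. Total counts were between 64873797 and 75114003 per pig, and 3 counts were taken as the floor, which covers counting error only. No sequencing batch is named.

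Superoxide dismutases turn superoxide into hydrogen peroxide, in the cytosol (SOD1), in mitochondria (SOD2) and outside the cell (SOD3). Catalase, the glutathione peroxidases and the peroxiredoxins then remove hydrogen peroxide or lipid peroxides, and thioredoxin returns electrons to most peroxiredoxins. In the ovary, cells that make steroids produce reactive oxygen through their mitochondrial cytochrome P450 enzymes, and the corpus luteum is known for its high content of antioxidant enzymes.

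Ovary markers were found in the libraries. Of the 7 listed oocyte markers, 6 reached 1 FPKM in some pig, and the granulosa markers added up to between 6.40 and 170 FPKM in the control group and between 12.4 and 129 FPKM in the rpFSH treatment group. Of the granulosa markers, FOXL2 had no matching locus. AMH shared its locus with SF3A2 and INHBA with GLI3, so granulosa levels here and below can include reads of SF3A2 and GLI3. In 2 pigs, control replicate 2 and rpFSH replicate 1, 4 of 5 listed markers of luteal steroid synthesis (STAR, CYP11A1, HSD3B1 and SCARB1) were above those of all other pigs. The fifth, the LH receptor gene LHCGR, had 7.32 FPKM in rpFSH replicate 1 but 2.74 FPKM in control replicate 2, within the range of the others (0.907 to 5.18 FPKM). The steroid carrier gene STAR had 532 FPKM in control replicate 2, 448 FPKM in rpFSH replicate 1 and 121 FPKM in rpFSH replicate 4. In the other 7 pigs, STAR lay between 1.52 and 5.67 FPKM. The same 2 pigs stood apart in many of the enzymes below, so results that rest on them are given with and without them, a choice made after the values were seen. In bulk tissue, fewer cells of a type and less RNA per cell cannot be told apart.

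No enzyme differed between the groups beyond the spread between pigs. In edgeR's quasi-likelihood test on the counts, fitted to the 36339 loci that reached that mean, 0 of 9 enzymes had a Benjamini-Hochberg adjusted p under 0.05, and their adjusted p lay between 0.970 and 0.999. Of all loci tested, 0 were called at this limit (0%). At an unadjusted P under 0.05, the test called 0 of 9 enzymes, beside 5.78% of all loci (2102 of 36339) and 4.86% of the protein-coding loci (737 of 15170). The study's own limit, an unadjusted P under 0.05 with a log2 fold change above 1 or below -1, was met by 0 enzymes, 3.59% of all loci and 3.14% of the protein-coding loci. In 6 of the 9 enzymes the fitted log2 fold change was below 0 and in 3 it was above 0, with a median of -0.17 beside -0.01 over all loci tested. In none of the 9 did the groups' FPKM separate, and 0.762% of all loci tested were without overlap. With control replicate 2 and rpFSH replicate 1 left out, edgeR called 0 of 9 enzymes at either limit, beside 0.00277% of all loci at an adjusted p under 0.05 and 5.51% at an unadjusted one. DESeq2 called 0 of the 5 enzymes to which it gave a P and 0.600% of all loci at an adjusted p under 0.05, and limma on log2 (FPKM + 1) called none of the 9 and no locus. Since 5 pigs per group gave wide intervals, these results do not show that the levels are equal.

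**Figure D1:**
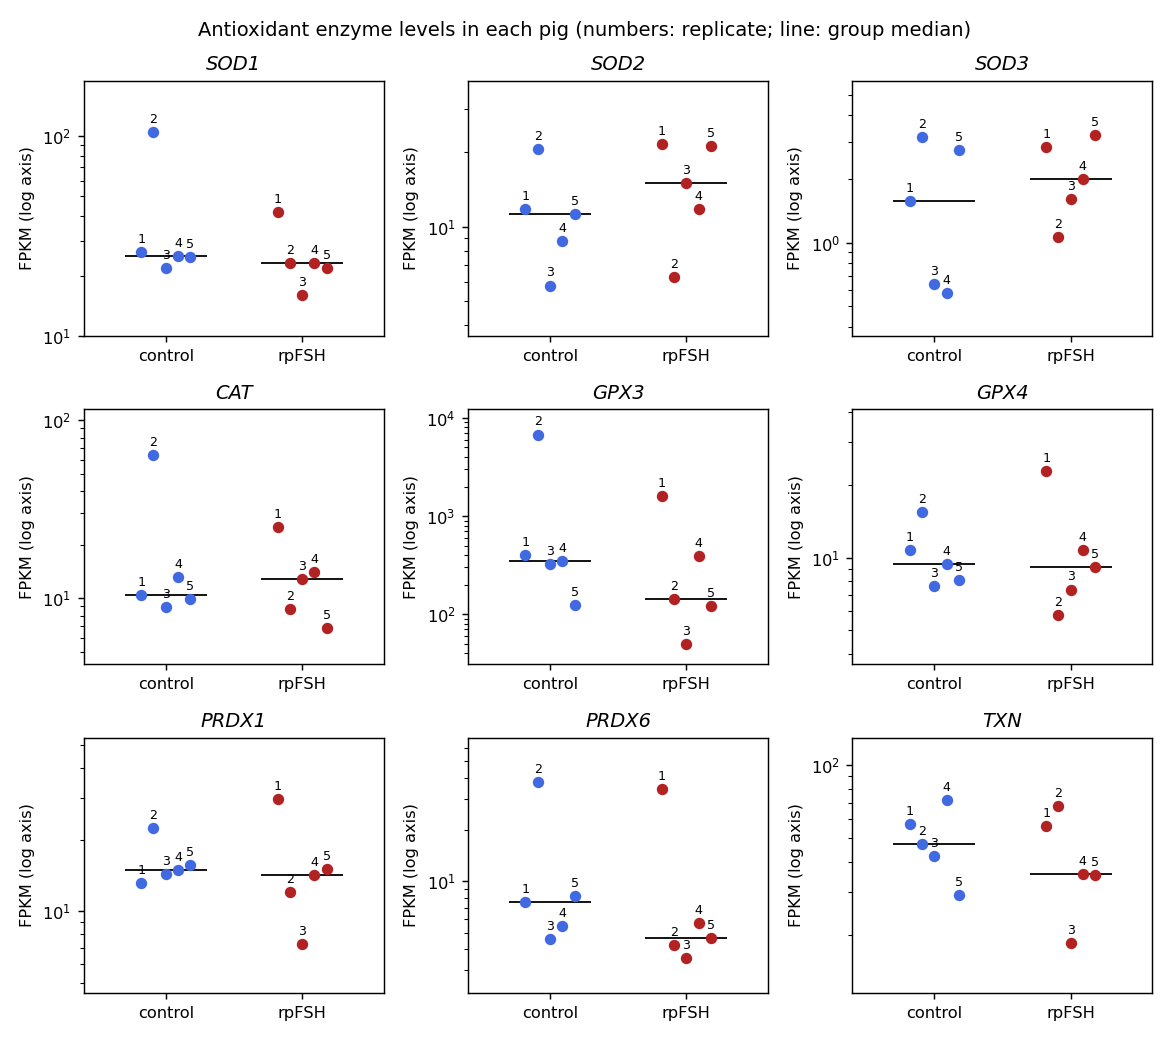
FPKM of the 9 enzymes in each pig on a log axis, with the replicate number beside each point, the control group in blue, the rpFSH treatment group in red and a line at each group's median. Control replicate 2 or rpFSH replicate 1 is the highest pig in 7 of 9 panels, and the remaining pigs of the groups overlap in every panel.

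SOD1, the copper and zinc enzyme of the cytosol (chr13:195326519-195335489, plus strand), had 26.2, 105, 21.9, 25.1 and 24.9 FPKM in control replicates 1 to 5. The rpFSH replicates 1 to 5 had 41.8, 23.3, 16.0, 23.1 and 21.9 FPKM. Outside the 2 highest pigs, control replicate 2 and rpFSH replicate 1, the other 8 stayed between 16.0 and 26.2 FPKM, and the groups overlapped. The group means were 40.7 ± 36.1 and 25.2 ± 9.76 FPKM (SD, n = 5 each, exact permutation test, two-sided, p = 0.476). The fitted log2 fold change was -0.69 (SE 0.50, edgeR, adjusted p = 0.973), and it was -0.17 without the 2 highest pigs and 0.11 without control replicate 2 alone.

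SOD2, the manganese enzyme of mitochondria (chr1:7679352-7691724, plus strand), had 11.8, 20.7, 5.79, 8.75 and 11.3 FPKM in the control group. In the rpFSH treatment group the values were 21.6, 6.26, 15.0, 11.8 and 21.3 FPKM. Here rpFSH replicate 5 was nearly as high as rpFSH replicate 1 and control replicate 2, and low pigs occurred in both groups. The means were 11.7 ± 5.58 and 15.2 ± 6.51 FPKM (SD, n = 5 each, exact permutation test, p = 0.341), and the log2 fold change was 0.39 (SE 0.41, edgeR, adjusted p = 0.999). Without control replicate 2 the log2 fold change was 0.74. SOD2 had the largest positive fold change of the 9 enzymes, and its 95% interval ran from 0.701-fold to 2.44-fold.

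SOD3, the secreted enzyme that binds the extracellular matrix (chr8:18796636-18804064, plus strand), was the lowest of the 9 in every pig. It had 1.57, 3.16, 0.638, 0.580 and 2.75 FPKM in the control group and 2.85, 1.07, 1.61, 2.00 and 3.23 FPKM in the rpFSH treatment group. The lowest pigs, control replicates 3 and 4, were both controls, whereas the remaining controls lay within the range of the rpFSH pigs. The means were 1.74 ± 1.18 and 2.15 ± 0.889 FPKM (SD, n = 5 each, exact permutation test, p = 0.532), and the log2 fold change was 0.31 (SE 0.52, edgeR, adjusted p = 0.999), or 0.08 without control replicate 4 and 0.68 without control replicate 2.

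CAT, the peroxisomal enzyme that splits hydrogen peroxide (chr2:26493626-26581452, minus strand), had 10.4, 63.9, 8.90, 13.1 and 9.95 FPKM in the control group. The rpFSH treatment group had 25.2, 8.66, 12.8, 14.1 and 6.80 FPKM. Control replicate 2 was 6.27 times the median of the 8 pigs other than itself and rpFSH replicate 1, which was 2.48 times that median. The means were 21.2 ± 23.9 and 13.5 ± 7.19 FPKM (SD, n = 5 each, exact permutation test, p = 0.722), but the group medians stood in the other order, with 10.4 and 12.8 FPKM. The log2 fold change of -0.66 (SE 0.64, edgeR, adjusted p = 0.999) was 0.05 without the 2 highest pigs and 0.42 without control replicate 2 alone.

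GPX3, the glutathione peroxidase that is secreted into plasma and follicular fluid (chr16:71980468-71989011, minus strand), was the most abundant and the most variable of the 9 enzymes. Its mean of 1028 FPKM over the 10 pigs was rank 1 of all 19972 protein-coding loci. The control pigs had 396, 6779, 326, 346 and 123 FPKM, and the rpFSH pigs had 1600, 141, 49.0, 393 and 122 FPKM. Control replicate 2 was thus 138 times rpFSH replicate 3, the lowest pig, and it was 29.0 times the median of the 8 remaining pigs. In control replicate 2, GPX3 alone took up 1.215% of all counts (95% Wilson interval 1.213 to 1.218%), and it was rank 1 by FPKM among the protein-coding loci of that pig. Its rank was 2 in rpFSH replicate 1, 137 in rpFSH replicate 3 and from 6 to 56 in the other pigs. Rank 1 of the mean thus rested on control replicate 2. The median of the 8 remaining pigs was 233 FPKM. Over the 10 pigs the coefficient of variation was 201%, which is at the 98.6th percentile of the tested protein-coding loci, whose median was 31.6%.

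The group means of GPX3 were 1594 ± 2900 and 461 ± 650 FPKM (SD, n = 5 each, exact permutation test, two-sided, p = 0.524). The log2 fold change was -1.81 (SE 1.29, edgeR, adjusted p = 0.970), with a 95% interval from 0.0391-fold to 2.08-fold. Single pigs decided its direction. It was 0.72 without control replicate 2, -3.24 without rpFSH replicate 1 and -0.71 without both, and the unadjusted edgeR P of the second of these was 0.0381 with an adjusted p of 0.819.

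GPX4, the selenoenzyme that reduces lipid peroxides in membranes (chr2:77320464-77323938, minus strand), had 10.7, 15.4, 7.61, 9.36 and 8.09 FPKM in the control group. In the rpFSH treatment group it had 22.8, 5.77, 7.37, 10.7 and 9.17 FPKM. Here rpFSH replicate 1 was above control replicate 2, and the other 8 pigs lay between 5.77 and 10.7 FPKM. The means were 10.2 ± 3.11 and 11.2 ± 6.74 FPKM (SD, n = 5 each, exact permutation test, p = 0.849). The log2 fold change was 0.15 (SE 0.38, edgeR, adjusted p = 0.999), and it was -0.07 without the 2 highest pigs and -0.31 without rpFSH replicate 1 alone.

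PRDX1, an abundant cytosolic peroxiredoxin (chr6:165824594-165861430, plus strand), had 13.2, 22.4, 14.3, 14.9 and 15.6 FPKM in the control group and 29.7, 12.1, 7.26, 14.2 and 15.0 FPKM in the rpFSH treatment group. The rpFSH treatment group held both the highest and the lowest pig. The means were 16.1 ± 3.66 and 15.7 ± 8.42 FPKM (SD, n = 5 each, exact permutation test, p = 0.881), and the log2 fold change was -0.01 (SE 0.35, edgeR, adjusted p = 0.999), with a 95% interval from 0.583-fold to 1.69-fold.

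PRDX6, the peroxiredoxin with a single active cysteine that also cleaves phospholipids (chr9:115857527-115872531, plus strand), had 7.50, 38.1, 4.59, 5.43 and 8.21 FPKM in the control group. The rpFSH treatment group had 34.7, 4.24, 3.55, 5.66 and 4.67 FPKM. Control replicate 2 and rpFSH replicate 1 were here at about the same high level, 7.55 and 6.87 times the median of the other 8 pigs, none of which exceeded 8.21 FPKM. The means were 12.8 ± 14.2 and 10.6 ± 13.5 FPKM (SD, n = 5 each, exact permutation test, p = 0.484), and the log2 fold change was -0.27 (SE 0.83, edgeR, adjusted p = 0.999). It was 0.80 without control replicate 2, -1.53 without rpFSH replicate 1 (edgeR, adjusted p = 0.819) and -0.46 without both (edgeR, adjusted p = 0.842).

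TXN, the small dithiol protein that reduces most peroxiredoxins (chr1:251264178-251277550, minus strand), had 57.2, 47.2, 42.2, 72.0 and 29.2 FPKM in the control group and 56.2, 67.6, 18.4, 35.6 and 35.2 FPKM in the rpFSH treatment group. It was the only one of the 9 with neither control replicate 2 nor rpFSH replicate 1 among its 3 highest pigs. Its highest pigs were control replicate 4 and rpFSH replicate 2. The means were 49.6 ± 16.1 and 42.6 ± 19.3 FPKM (SD, n = 5 each, exact permutation test, p = 0.548), and the log2 fold change was -0.17 (SE 0.35, edgeR, adjusted p = 0.999).

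**Figure D2:**
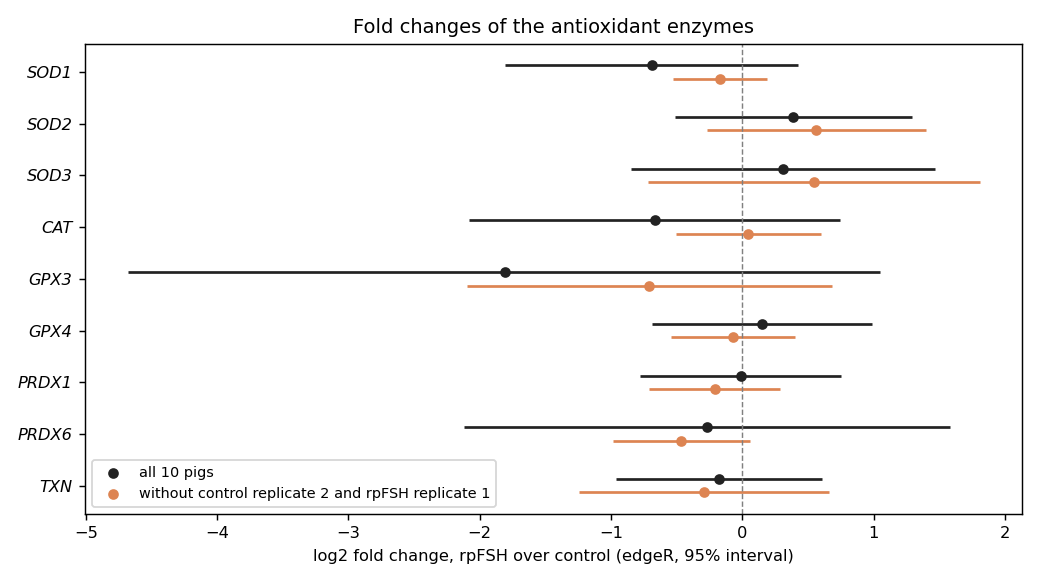
Fitted log2 fold changes of the 9 enzymes, rpFSH over control, with 95% intervals from edgeR, for all 10 pigs in black and without control replicate 2 and rpFSH replicate 1 in orange. Every interval crosses 0, and the estimate of GPX3 moves from -1.81 to -0.71 and that of CAT from -0.66 to 0.05 when both pigs are left out.

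By mean log2 (FPKM + 1), which is per length, the order was GPX3, TXN, SOD1, PRDX1, CAT, SOD2, GPX4, PRDX6 and SOD3. The order depends on the length taken for each locus, which was not checked. In control replicate 1, for example, CAT had 5687 counts at 10.4 FPKM and TXN had 5886 counts at 57.2 FPKM. GPX3 was above TXN, SOD1 above PRDX1 and PRDX6 above SOD3 in 10 of 10 pigs, and TXN was above SOD1 in 9 of 10, by a mean log2 difference smaller than its SD over pigs. The neighbours in the middle of the order could not be separated. PRDX1 was above CAT in 8 of 10 pigs, CAT above SOD2 in 6, SOD2 above GPX4 in 7 and GPX4 above PRDX6 in 7, and in each of these pairs the mean log2 difference was smaller than its SD over pigs. Except for SOD3, at the 53.9th percentile, the mean FPKM of each enzyme was at or above the 93.9th percentile of all protein-coding loci.

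Control replicate 2 and rpFSH replicate 1 were the 2 highest pigs in 6 of 9 enzymes, namely SOD1, CAT, GPX3, GPX4, PRDX1 and PRDX6. Among the tested protein-coding loci, 12.2% (1846 of 15170) had these 2 pigs on top. The 2 pigs were singled out because they stood high in these enzymes, so the 2 shares are a description and not a test. In SOD2 and SOD3 both pigs were among the 3 highest. At the low end, rpFSH replicate 3 was the lowest pig in 5 of 9 enzymes, SOD1, GPX3, PRDX1, PRDX6 and TXN, and in 16.6% of the tested protein-coding loci (2525 of 15170). Protein-coding loci took 64.7% of the counts in that library, the lowest share of the 10.

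The luteal marker score, the mean log2 (FPKM + 1) of STAR, CYP11A1, HSD3B1, LHCGR and SCARB1, was 7.53 in control replicate 2 and 7.36 in rpFSH replicate 1. It was 5.72 in rpFSH replicate 4 and between 1.83 and 3.28 in the other 7 pigs. Summed over these 5 markers, the level ranged from 14.2 to 2809 FPKM in the control group and from 19.1 to 1688 FPKM in the rpFSH treatment group, and none of the 5 was under 1 FPKM in every pig. The score did not separate the groups (difference 0.50, n = 5 each, exact permutation test, p = 0.802). In rpFSH replicate 4, CAT and GPX4 had rank 3 of the 10 pigs and GPX3 rank 4, but SOD1, PRDX1 and TXN had rank 7. Over all 10 pigs, GPX3 had r = 0.884 with the luteal score (permutation p = 2.40e-04, adjusted over 117 relations of enzymes with marker scores 0.0281) and rho = 0.867 (permutation p = 0.00204, adjusted 0.239). GPX4 (r = 0.848, adjusted permutation p = 0.145), PRDX6 (r = 0.842, adjusted permutation p = 0.164) and CAT (r = 0.820, adjusted permutation p = 0.149) had a like r without passing the adjustment. The 2 high pigs form a cluster of their own, so r was also computed over the other 8 pigs. Of the 9 enzymes, GPX3 again had the highest r with the luteal score (Pearson r = 0.612, exact permutation p = 0.0976, adjusted over 9 enzymes 0.879). Its Spearman rho was 0.738 (exact permutation p = 0.0458, adjusted 0.412). Over the same 8 pigs r fell to 0.479 for GPX4, 0.299 for CAT and 0.0468 for PRDX6. Leaving out also the 2 pigs farthest from the median score removed rpFSH replicate 4. The r was then 0.713 for GPX3, 0.699 for SOD1, 0.671 for PRDX1, 0.606 for PRDX6 and 0.545 for TXN. It was 0.181 for GPX4, -0.0774 for SOD3, -0.383 for SOD2 and -0.566 for CAT, so a positive r in this setting was not particular to GPX3. The high r of CAT and PRDX6 over all 10 pigs thus rested on the 2 high pigs. The part of luteal tissue in the levels of the enzymes was not tested.

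**Figure D3:**
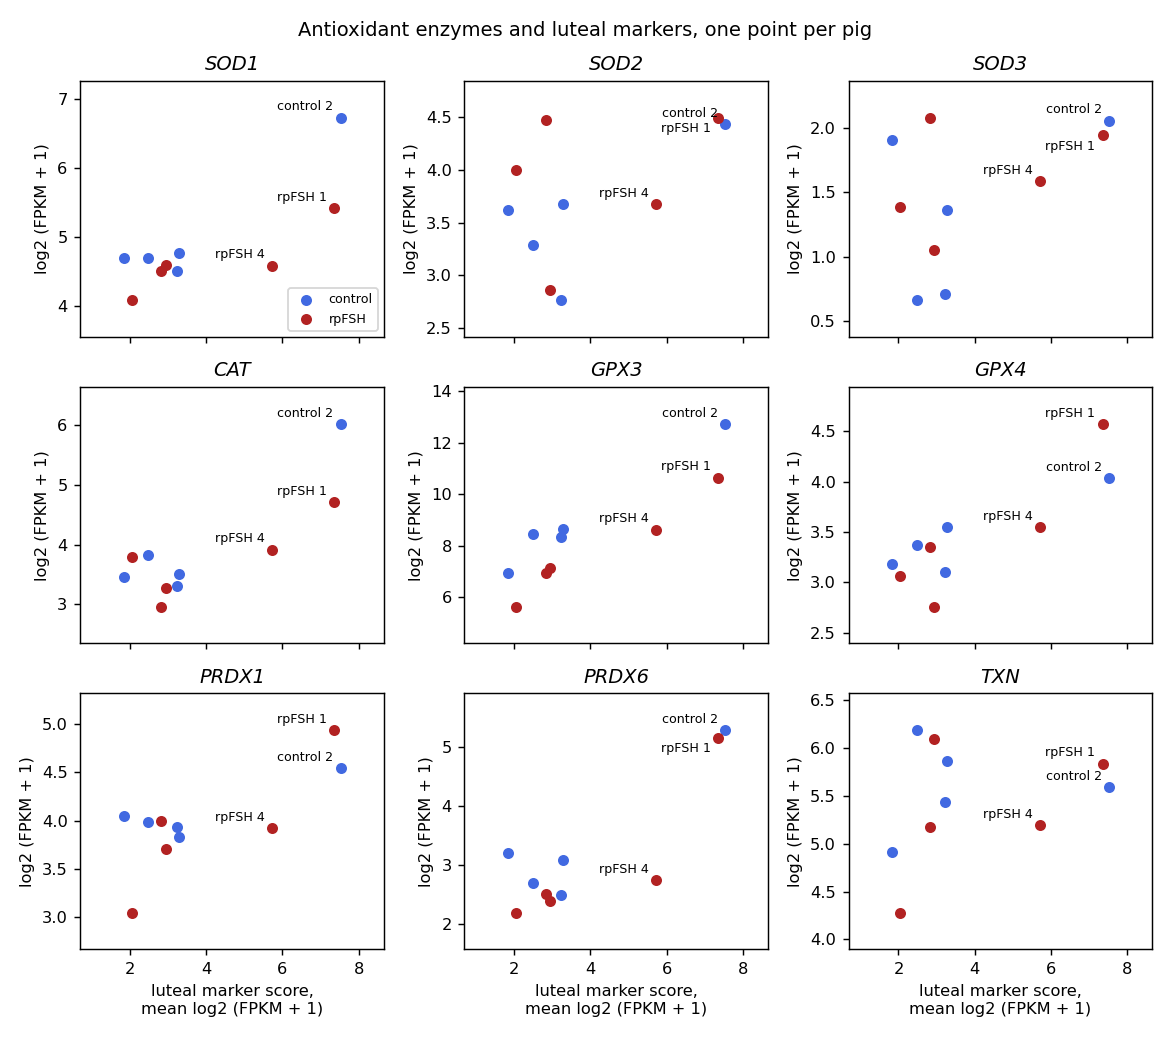
Level of each enzyme, as log2 (FPKM + 1), against the luteal marker score, with a point for each pig, the control group in blue and the rpFSH treatment group in red. Control replicate 2 (score 7.53) and rpFSH replicate 1 (score 7.36) lie at the upper right in most panels, but not in that of TXN.

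Relations with the other markers were looked at over the same 8 pigs, for 13 marker lists and 9 enzymes or 117 relations, all chosen after the values were seen. TXN went most closely with the granulosa markers over these 8 pigs. The granulosa score was highest in control replicate 4 (3.87) and rpFSH replicate 2 (3.76), the 2 pigs with the most TXN, and lowest of the 8 in rpFSH replicate 3 (1.50), the pig with the least. The r was 0.977 (exact permutation p = 9.92e-05, adjusted over the 117 relations 0.00580), and it was still 0.977 without the 2 pigs farthest from the median score and at least 0.956 with any 1 of the 8 left out. Spearman's rho was 0.929 (exact permutation p = 0.00223, adjusted 0.131). TXN also had r = 0.787 with the theca score and r = -0.766 with the endothelial score. Neither passed the adjustment (adjusted exact permutation p = 0.460 and 0.467). Over all 10 pigs r was 0.672 (permutation p = 0.0330, adjusted 0.299) and rho was 0.709 (permutation p = 0.0267, adjusted 0.460), since control replicate 2 had the lowest granulosa score (0.974) with 47.2 FPKM of TXN.

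The other relation with an adjusted Pearson p under 0.05 was that of PRDX6 with the epithelial markers, KRT8, KRT18, EPCAM, CDH1 and MAL2. Its r was 0.818 (exact permutation p = 7.44e-05, adjusted 0.00580), its rho was 0.976 (exact permutation p = 3.97e-04, adjusted 0.0464), and r was 0.977 without the 2 pigs farthest from the median score. The epithelial score was 2.98 in control replicate 5 and 1.40 in control replicate 1, which had the most PRDX6 of the 8 pigs, and it lay between 0.680 and 0.974 in the other 6. In the 8 pigs other than control replicate 5, KRT18 was at most 0.229 FPKM and EPCAM at most 0.566 FPKM. MAL2 had 10.9 FPKM in control replicate 1, beside 2.37 FPKM of KRT8 and 1.37 FPKM of CDH1. Over all 10 pigs r was 0.498 (permutation p = 0.0484, adjusted 0.307) and rho was 0.782 (permutation p = 0.0109, adjusted 0.460), with rpFSH replicate 1 high in PRDX6 at a score of 0.834. Marker scores of ciliated cells and epithelium were lower in the rpFSH treatment group without passing the test (exact permutation p = 0.0635 and 0.0714), and 0 of the 13 lists had an exact p under 0.05.

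**Figure D4:**
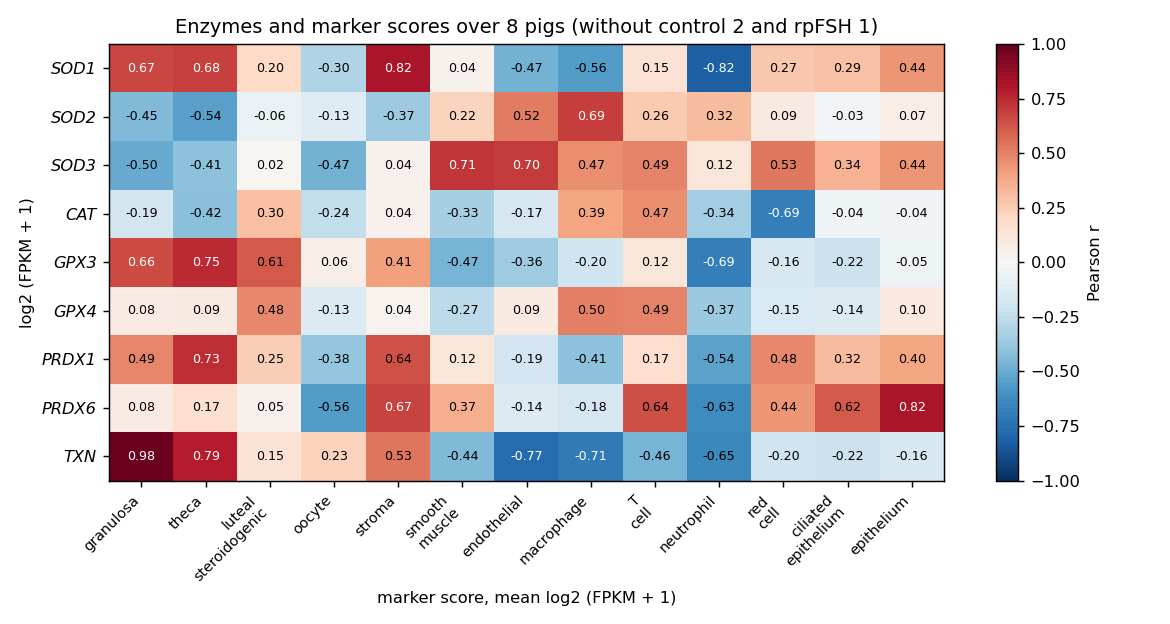
Pearson r of each enzyme with each of 13 marker scores over 8 pigs, without control replicate 2 and rpFSH replicate 1, with red for positive and blue for negative values. TXN with the granulosa score (0.977) and PRDX6 with the epithelial score (0.818) are the only 2 of these relations with an adjusted Pearson p under 0.05.

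Among the enzymes themselves, 36 pairs were compared. Over all 10 pigs, 34 pairs had a positive r and 12 an adjusted permutation p of r under 0.05. By Spearman's rho 5 pairs had such a p, and from 0 to 6 had it with 1 pig left out. The r of the 12 pairs lay between 0.792 and 0.928. Without control replicate 2 and rpFSH replicate 1, 0 of 36 had such a p, at the smaller number of pigs, and the r of the 12 pairs lay between -0.123 and 0.805. It stayed above 0.5 in 7 of them and was under 0.2 in 3, which were those of CAT with SOD1, GPX3 and PRDX6. Over the other 8 pigs, SOD1 with PRDX6 (r = 0.770, exact permutation p = 0.0132), SOD2 with SOD3 (r = 0.805, exact permutation p = 0.0164), SOD1 with TXN (r = 0.743, exact permutation p = 0.0281) and SOD1 with GPX3 (r = 0.734, exact permutation p = 0.0307) had the smallest Pearson p, and each had an adjusted p of 0.277. The corresponding rho values were 0.714, 0.714, 0.595 and 0.643.

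The 2 genes whose log2 (FPKM + 1) had the highest r with each enzyme were sought among 9619 named protein-coding loci, over all 10 pigs, and are given as a description. For GPX3 they were RAB27B (r = 0.984) and RANBP6 (r = 0.981), for SOD1 GLDC (r = 0.991) and CPOX (r = 0.989), and for CAT RNF128 (r = 0.974) and the locus of ECHS1 and FUOM (r = 0.970). GLDC had 15.9 FPKM in control replicate 2 and a median of 0.877 in the 8 pigs other than the 2 high ones, and RAB27B had 22.4 FPKM beside a median of 2.27. For PRDX6 they were STT3B (r = 0.988) and EIF1 (r = 0.981), for PRDX1 DAD1 (r = 0.975) and GPX8 (r = 0.975), and for GPX4 the locus that includes PKM (r = 0.973) and VTI1B (r = 0.969). For SOD2 they were NEPRO (r = 0.906) and ARFGEF2 (r = 0.895), for SOD3 SLC41A2 (r = 0.959) and IGFBP3 (r = 0.935), and for TXN ZNF629 (r = 0.968) and SLC35D1 (r = 0.958).

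Other members of the same enzyme families covered a wide range of levels. The mitochondrial peroxiredoxin PRDX3 had 288 FPKM in control replicate 2, 135 FPKM in rpFSH replicate 1 and between 17.5 and 46.3 FPKM in the other pigs. GPX1, the cytosolic glutathione peroxidase, was high in control replicates 2 and 5 (161 and 102 FPKM) and in rpFSH replicate 1 (86.6 FPKM). The locus of PRDX2, which the table shares with HOOK2, reached 50.9 FPKM in rpFSH replicate 1 and 21.1 FPKM in control replicate 2. The mitochondrial thioredoxin TXN2 had 26.9 and 28.7 FPKM in these 2 pigs and at most 11.3 FPKM elsewhere. PRDX4, PRDX5, GPX7, GPX8 and the copper chaperone CCS lay between 2.74 and 24.1 FPKM in all pigs, and GPX5 was at or under the floor of 3 counts in 7 of 10 pigs and was not tested.

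Of 84 further genes of antioxidant defence that were listed, 78 matched a locus, and 74 of their 77 distinct loci were tested. An unadjusted P under 0.05 was found for 7 (9.46%), beside 5.78% of all loci and 4.86% of the protein-coding loci. Of the 74, 1 was higher and 6 lower in the rpFSH treatment group, beside 2.38 and 3.41% of all loci. After adjustment 0 of 74 had a p under 0.05 (edgeR, smallest adjusted p = 0.848), and the median log2 fold change was -0.04. By list, the 7 were 3 of 12 relatives of the same families, 1 of 11 genes of glutathione supply, 2 of 13 genes around NRF2, heme and iron and 1 of 4 metallothioneins. The lists of thioredoxin and glutaredoxin partners (9 tested), glutathione S-transferases (9), selenoproteins and selenium handling (8) and oxidant sources (8) held none.

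SLC7A11, the cystine importer that feeds glutathione synthesis, had the smallest P of the 7. The control pigs had 1.33, 1.81, 1.55, 1.08 and 3.26 FPKM, and the rpFSH pigs 0.654, 1.24, 0.418, 0.621 and 0.673 FPKM. Of the rpFSH pigs, replicate 2 alone reached into the range of the controls. The log2 fold change was -1.29 (SE 0.37, unadjusted P = 0.00523, adjusted p = 0.848, edgeR) and was -1.24 without control replicate 2 and rpFSH replicate 1.

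HMOX2, the constitutive heme oxygenase and the relative of the unmatched HMOX1, had 4.86, 5.13, 5.03, 4.96 and 4.49 FPKM in the control group and 4.30, 3.32, 4.43, 3.82 and 3.46 FPKM in the rpFSH treatment group. Every rpFSH pig was below every control pig, though rpFSH replicate 3 and control replicate 5 were close. The exact permutation p was 0.00794, the smallest that 5 against 5 pigs allow, and the log2 fold change was -0.31 (SE 0.12, unadjusted P = 0.0285, adjusted p = 0.848, edgeR). With single pigs left out, the log2 fold change ranged from -0.37 to -0.26. The unadjusted edgeR P then reached up to 0.0807, without rpFSH replicate 5, and it was 0.0683 with the replicate block. Of the 74 loci tested, HMOX2 and the metallothionein MT1D had all rpFSH pigs below all control pigs, beside 0.526% of all loci. MT1D was scarce, with a median of 0.279 FPKM in the control group and 0.121 FPKM in the rpFSH treatment group, and control replicate 5 stood out with 1.70 FPKM. Metallothioneins are near-identical copies whose reads can be split between loci, so its value is uncertain.

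NQO1, a quinone reductase, had a median of 7.43 FPKM in the control group and 4.36 FPKM in the rpFSH treatment group, and MAFF, a small Maf protein that pairs with NRF2, had 1.83 and 3.02 FPKM. Their log2 fold changes were -0.69 and 0.95 (edgeR, adjusted p = 0.850 for both), and in both the groups overlapped. GPX2 and GPX6, glutathione peroxidases known from gut and olfactory epithelium, were high in the same control pigs. GPX2 had 11.1 FPKM in control replicate 5, 8.22 in control replicate 2 and at most 1.41 FPKM elsewhere. GPX6 had 8.92 FPKM in control replicate 5, 1.04 in control replicate 2 and at most 0.377 FPKM elsewhere, with 3 pigs at or under the floor. The epithelial score was also highest in these pigs, 2.98 and 2.87 beside at most 1.40 elsewhere. So was the score of ciliated cells, 2.73 and 1.97 beside at most 0.509 elsewhere. The part of either in these values was not tested. The log2 fold change of GPX2 was -2.62 (adjusted p = 0.848) and that of GPX6 -4.30 (adjusted p = 0.850, edgeR), and leaving out control replicate 5 gave -1.87 and -1.55, with unadjusted edgeR P of 0.0947 and 0.317.

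**Figure D5:**
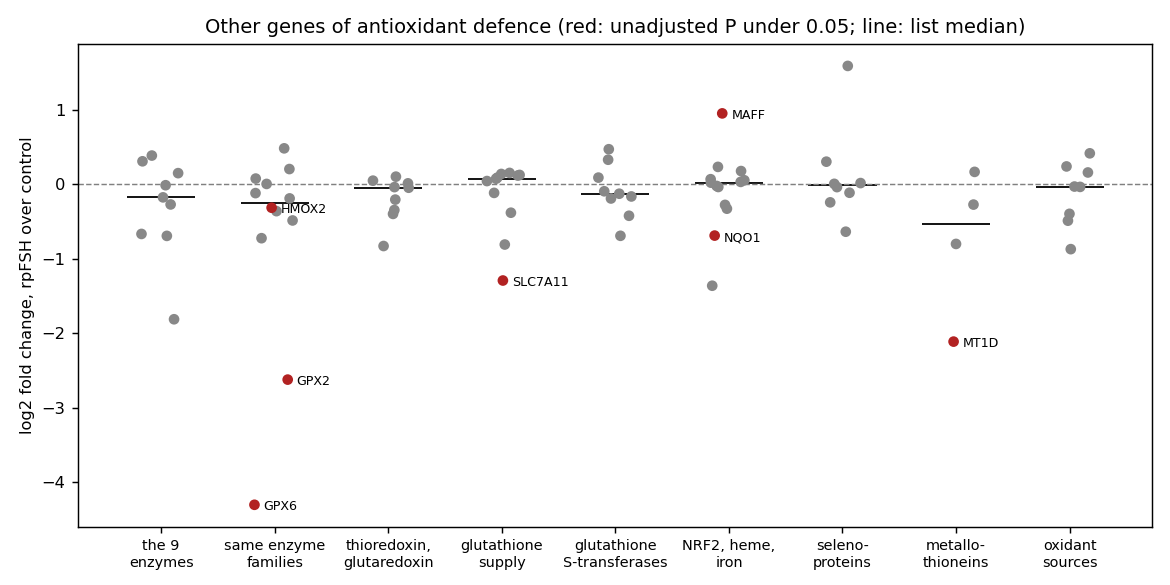
Fitted log2 fold changes, rpFSH over control, of the 9 enzymes and of 8 lists of other antioxidant genes, with a point for each locus, red where the unadjusted edgeR P is under 0.05 and a line at the list's median. The 7 red points are SLC7A11, MT1D, HMOX2, GPX2, GPX6, NQO1 and MAFF, of which only MAFF is above 0, and the 9 enzymes hold none.

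For 6 of the enzymes, other loci overlap on the opposite strand (4 at PRDX1, 2 at CAT and 1 each at SOD1, GPX3, GPX4 and TXN). Whether reads were counted by strand is not given in the sources used here, so reads in those overlaps cannot be assigned with certainty. The overlapping loci had mean levels between 1.09 and 8.37 FPKM, below the mean of the enzyme in each case.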

How the data were processed

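RNA-seq values of 10 ovaries were analysed. Per the methods, the authors used Cutadapt for trimming, Hisat2 and Bowtie2 for mapping to Sscrofa11.1, and StringTie with Ballgown for the FPKM values. The submitters' processing notes name HISAT2 2.0, StringTie 1.3.0 and Bowtie 0.12.2. The deposited table also holds a whole-number count for each locus and pig, whose making is not given in the sources used here. Where every pig had over 200 counts, the ratio of count to FPKM was fixed (99th percentile of the log2 deviation 0.00365).

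Counts were tested with edgeR 4.0.16 (quasi-likelihood, TMM) in R 4.3.3, on all loci whose mean FPKM reached 0.1. limma 3.58.1 on log2 (FPKM + 1), which is close to the study's Ballgown model, and DESeq2 1.42.0 were alternatives. Single values were tested two-sided by exact permutation (252 assignments), and correlations on log2 (FPKM + 1) by 100000 permutations or, under 10 pigs, by every order. Python 3.11.15, numpy 2.4.6, pandas 2.3.3 and scipy 1.17.1 were used. The edgeR, DESeq2 and limma fits were tested on simulated counts, with a single dispersion for all loci and no outlying pigs, unlike these data. The members, lists and tests were chosen with earlier results of these data known. All members are named, and further genes are named where their unadjusted P is under 0.05 (at most 6 in each direction), where they belong to the same families, or where they are among the 2 with the highest r. Other choices made after the values were seen were leaving out 2 pigs together and the p values of marker relations. Symbols without a name in the table were matched through NCBI and Ensembl identifiers. The test of the 45 pairs planned for 10 enzymes became 36 pairs. No genome or protein sequences were used here.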

Additional observations from a re-analysis of the deposited data

Results flagged for a closer look

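Single pigs stood apart from the other 4 of their group by Dixon's test at the 95% level in 13 of 34 groups examined. The 34 groups were the 9 enzymes, the 7 named antioxidant genes and the luteal score, in each treatment group. Dixon's test flags about 1 in 20 groups by chance only where values are normally distributed. Apart from the score, it was run on untransformed FPKM, and the 7 genes were named for an unadjusted P under 0.05. The 13 flags are therefore a description and are not compared with that rate. SOD1 in the rpFSH treatment group passed narrowly (gap over range 0.716, limit 0.71). The groups are not independent, since the same pigs recur in them. Control replicate 2 was high in SOD1 (105 FPKM), CAT (63.9 FPKM), GPX3 (6779 FPKM), PRDX1 (22.4 FPKM), PRDX6 (38.1 FPKM) and the luteal marker score (7.53). Of the rpFSH pigs, replicate 1 was high in SOD1 (41.8 FPKM), GPX3 (1600 FPKM) and PRDX6 (34.7 FPKM). Control replicate 5 was high in MT1D (1.70 FPKM) and GPX6 (8.92 FPKM). Replicate 3 of the rpFSH pigs was high in GPX2 (1.41 FPKM) and GPX6 (0.377 FPKM), although the controls reached far higher levels of both.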

How the results depend on the processing

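Without control replicate 2 and rpFSH replicate 1, the log2 fold change of CAT turned to 0.05 and that of GPX4 to -0.07, and the difference of mean FPKM of GPX4 to -0.682. The difference of medians was 2.38 FPKM for CAT and -0.192 FPKM for GPX4, against the direction of the means. PRDX1, at -0.01, became 0.00 with no filter and 0.02 with protein-coding loci only. The cause of these turns was not tested. The 7 genes of the pathway lists became 3 by limma with a pseudocount of 1, 4 with a pseudocount of 0.1 and 4 with the replicate block. The 2102 loci with an unadjusted P under 0.05 became 1180 with a mean FPKM of at least 1 and 722 with protein-coding loci only, where fewer loci were tested, and 1294 with the replicate block. DESeq2 gave 218 loci an adjusted p under 0.05 where edgeR gave 0, but none of the 9 enzymes, and it gave no P to SOD1, CAT, GPX3 and PRDX6. Without the 2 pigs, 1 locus had such a p in edgeR, and 0 pairs of enzymes were left of 12.

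Leaving out each pig in turn, the log2 fold change ranged from -0.97 to 0.11 for SOD1, -1.04 to 0.42 for CAT, -3.24 to 0.72 for GPX3, -0.31 to 0.39 for GPX4, -0.40 to 0.18 for PRDX1, -1.53 to 0.80 for PRDX6 and -0.41 to 0.02 for TXN. The difference of mean FPKM ranged from -20.2 to 0.686 for SOD1, -10.8 to 2.93 for CAT, -1501 to 163 for GPX3, -1.97 to 2.28 for GPX4, -3.95 to 1.67 for PRDX1 and -8.24 to 4.13 for PRDX6. SOD2 and SOD3 kept their direction, with log2 fold changes from 0.21 to 0.74 and from 0.08 to 0.68 and differences of mean FPKM from 1.90 to 5.77 and from 0.124 to 0.768. From 0 to 2 enzymes and 2 to 8 genes of the pathway lists had an unadjusted P under 0.05, and 0 to 2 of all loci had an adjusted one. An adjusted Pearson p under 0.05 was found for 1 to 15 pairs of enzymes, and an exact p under 0.05 for 0 to 2 of the 13 marker lists. The r of TXN with the granulosa score over all 10 pigs, 0.672, ranged from 0.568 to 0.936 with 1 of the 10 left out, its exact permutation p was 0.05 or more in 5 of these 10 cases, and r was 0.591 on TMM-scaled counts (permutation p = 0.0718). The number of enzymes with a log2 fold change below 0 ranged from 1 to 7.

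The same replicate numbers in both groups come from the labels, and nothing says that they mark related pigs. Over the tested protein-coding loci, the deviations of same-numbered pigs from their group means correlated between -0.413 and 0.111 (pooled -0.139). Same-numbered pigs were therefore not treated as pairs. With the replicate block, 0 of 9 enzymes were called. Each enzyme had 1 locus, so summing loci gave no other value.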

Other observations

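In 26 of the 74 tested loci of the antioxidant lists (35.1%), control replicate 2 and rpFSH replicate 1 were the 2 highest pigs, beside 12.2% of the tested protein-coding loci and 7.42% of all loci tested. These genes included partners of the peroxiredoxins and a source of NADPH. Sulfiredoxin SRXN1, which repairs overoxidised peroxiredoxins, had 21.8 FPKM in control replicate 2, 7.80 in rpFSH replicate 1 and 3.47 in rpFSH replicate 4, beside at most 2.11 FPKM elsewhere. The cytosolic isocitrate dehydrogenase IDH1, which makes NADPH, had 114, 44.0 and 21.2 FPKM in these pigs and at most 17.9 FPKM elsewhere. Thioredoxin reductase TXNRD1 had 10.2 and 10.9 FPKM in the 2 pigs and between 6.84 and 8.50 FPKM in the other 8, a far smaller difference. These counts were made after the 2 pigs had been noticed, and they are a description.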
